A study of Mus musculus with 9 samples.

Results

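Chemokines are small secreted proteins that direct the movement of leukocytes and other cells, and they are grouped as CXC, CC and CX3C by the spacing of their first cysteines. Each binds G protein-coupled receptors on the responding cell, while atypical receptors such as ACKR3 bind chemokines without classical G protein signalling and take them up. Mesenchymal stromal cells of bone marrow are known for CXCL12, which retains blood-forming cells in the marrow, and for releasing neutrophil and monocyte attractants under inflammatory stimuli. The genes described here are 9 chemokine ligand genes (Cxcl1, Cxcl3, Cxcl5, Cxcl10, Cxcl12, Cxcl16, Ccl2, Ccl7 and Cx3cl1) and the receptor gene Ackr3, chosen by name, 10 of the 21959 genes in the table. Each name occurred once, and all 10 genes passed the filter on low values.

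The samples were 9 RNA-seq libraries from a line of mesenchymal stromal cells of mouse bone marrow, marked SV40 in the labels. The cells were kept for 24 h with peritoneal interstitial fluid (PF) of control mice (control PF, 3 libraries), with PF of mice treated with TNBS for 3 days (TNBS PF, 3 libraries) or with phosphate-buffered saline (PBS, 3 libraries). TNBS, a hapten, is given to rodents as a model of colitis. All 3 groups are cultures of this line in DMEM/F12 with 10% serum, PBS included, and none received TNBS itself. The sources used here do not give the strain, sex or age of the fluid donors, or whether fluid was pooled. No label ties the libraries within a group to different cultures, so p-values measure only how these samples vary, possibly for technical reasons.

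The 9 libraries held 17.9 to 25.6 M assigned fragments, and those of TNBS PF were the deepest (22.9 to 25.6 M against 17.9 to 21.5 M in the other 6). Of 12 stromal markers, 11 were tested and Itgb1, the integrin beta 1 gene, was the most abundant, with a mean of 495 FPKM. Pdgfra and Pdgfrb, the platelet-derived growth factor receptor genes, had means of 11.5 and 17.4 FPKM, while Lepr, a marker of marrow stroma, did not exceed 0.0907 FPKM. The stromal markers summed to 1552 to 1619 FPKM in PBS, 1530.2 to 1551 in control PF and 1459 to 1481 in TNBS PF. In TNBS PF 2 of the 11 were called higher and 4 lower than with control PF, where 10.6% of all tested genes were called. Against PBS 2 were called higher and 5 lower, where 16.7% of all were called. Pdgfra and Pdgfrb were called lower in both, with log2 fold changes of −0.38 and −0.39 against control PF and −0.36 and −0.42 against PBS. The 2 called higher were Cd44 (0.21) and Vcam1 (0.12) against control PF, and Nt5e (0.44) and Vcam1 (0.15) against PBS. Of the macrophage and monocyte markers 10 of 12 stayed under 1 FPKM in every library, with Ptprc and Cd68 at up to 0.00306 and 2.39 FPKM, and Cd14 carried most of their sum of 14.6 to 15.9 FPKM in PBS, 15.3 to 17.6 in control PF and 16.6 to 18.4 in TNBS PF. The summed neutrophil markers did not exceed 0.558 FPKM (S100a8 at up to 0.0574, S100a9 listed at 0, Camp the most abundant), the lymphocyte markers 0.149 (Cd3e at up to 0.0107, Cd3g listed at 0, Cd79a the most abundant) and the endothelial markers 1.05 (Pecam1 at up to 0.0446, Cdh5 at up to 0.0853, Egfl7 the most abundant). The summed mesothelial markers were 46.2 to 47.6 FPKM in control PF, 47.8 to 48.6 in PBS and 52.7 to 57.9 in TNBS PF, most of it from Msln, with Upk3b at up to 0.0395. Of these 14 genes 4 were tested, and limma called 3 (Msln, Krt18 and Krt19) higher in TNBS PF against either other group. Of all tested genes, 5.15% were called higher against control PF and 7.8% against PBS. The TNBS PF and PBS groups overlapped for Msln and Krt19. Cd14 rose in TNBS PF against PBS (log2 fold change 0.19, limma adjusted p = 0.03). Voom called neither Krt18 nor Cd14 in these comparisons, and the fourth mesothelial gene tested, Slpi, had a log2 fold change of −0.25 in TNBS PF against control PF (limma adjusted p = 0.12). The part of depth and of all these markers in the results below was not tested.

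RefSeq (build GRCm38.p6) gave a promoter for 6 of the 10 genes: Cxcl1, Cxcl3, Cxcl10, Cxcl12, Cx3cl1 and Ackr3. The 250 bases before the gene start are shown for the 2 neighbouring CXC genes Cxcl1 and Cxcl3, for the interferon-inducible Cxcl10, and for Ackr3, 1 of the genes with the largest fold changes. Capitals mark matches, on either strand, to GGG, any 3 bases and TTCC (a form of the NF-kB site), to GAAA, any 2 bases and GAAA (a form of the interferon-stimulated response element, ISRE), to TGANTCA (the AP-1 site) or to TATAAA (the TATA box).
Cxcl1, chr5:90890995-90891244, plus strand: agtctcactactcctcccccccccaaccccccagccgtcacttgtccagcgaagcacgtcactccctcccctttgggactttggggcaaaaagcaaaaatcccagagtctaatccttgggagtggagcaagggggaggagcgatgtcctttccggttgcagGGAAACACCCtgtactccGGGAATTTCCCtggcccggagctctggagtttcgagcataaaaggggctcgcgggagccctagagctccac
Cxcl3, chr5:90785851-90786100, plus strand: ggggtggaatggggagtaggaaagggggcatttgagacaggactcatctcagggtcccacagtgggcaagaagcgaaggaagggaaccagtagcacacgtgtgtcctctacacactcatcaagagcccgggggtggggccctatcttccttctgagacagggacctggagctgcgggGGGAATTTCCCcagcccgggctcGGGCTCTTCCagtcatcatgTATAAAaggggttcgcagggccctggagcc
Cxcl10, chr5:92348890-92349139, minus strand: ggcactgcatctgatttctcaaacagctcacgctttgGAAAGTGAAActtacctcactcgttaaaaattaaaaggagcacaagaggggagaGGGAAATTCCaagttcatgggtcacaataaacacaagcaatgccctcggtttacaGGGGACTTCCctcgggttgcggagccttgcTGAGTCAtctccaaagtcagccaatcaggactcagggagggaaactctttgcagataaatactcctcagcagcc
Ackr3, chr1:90203730-90203979, plus strand: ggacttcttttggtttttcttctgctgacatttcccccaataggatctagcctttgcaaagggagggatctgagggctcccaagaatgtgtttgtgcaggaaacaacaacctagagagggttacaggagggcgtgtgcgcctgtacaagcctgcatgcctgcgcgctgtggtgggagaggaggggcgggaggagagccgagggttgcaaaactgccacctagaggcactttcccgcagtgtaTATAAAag

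Positions of matches are those of their first base, counted from the RefSeq gene start, with the base before the start as −1. Cxcl1 and Cxcl3 both held GGGAATTTCC, at −71 and −73, and in both a match on the other strand overlapped it in all but 1 base. Cxcl1 held a further NF-kB form match at −89 and Cxcl3 another at −50, with a TATA box at −30 in Cxcl3. In Cxcl10 there were 2 matches to the NF-kB form (GGGAAATTCC at −159 and GGGGACTTCC at −104), the ISRE form GAAAGTGAAA at −213 and the AP-1 site TGAGTCA at −74, which matches on both strands. Cx3cl1 and Ackr3 held only TATAAA, at −6 and −8, and Cxcl12 held none of the 4 motifs. For Cx3cl1 the RefSeq start lies downstream of the GENCODE start given below, so that 171 of the 250 bases searched are inside the GENCODE gene, its match included, and they are not shown. For Cxcl1 the last 4 bases are inside the GENCODE gene, and for the other 4 genes none are. Among 32851 RefSeq promoters, 4.65% held the NF-kB form, 2.98% the ISRE form, 6.75% the AP-1 site and 12.4% TATAAA in windows of the same length. A match describes letters only, and binding was not measured.

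**Figure D1:**
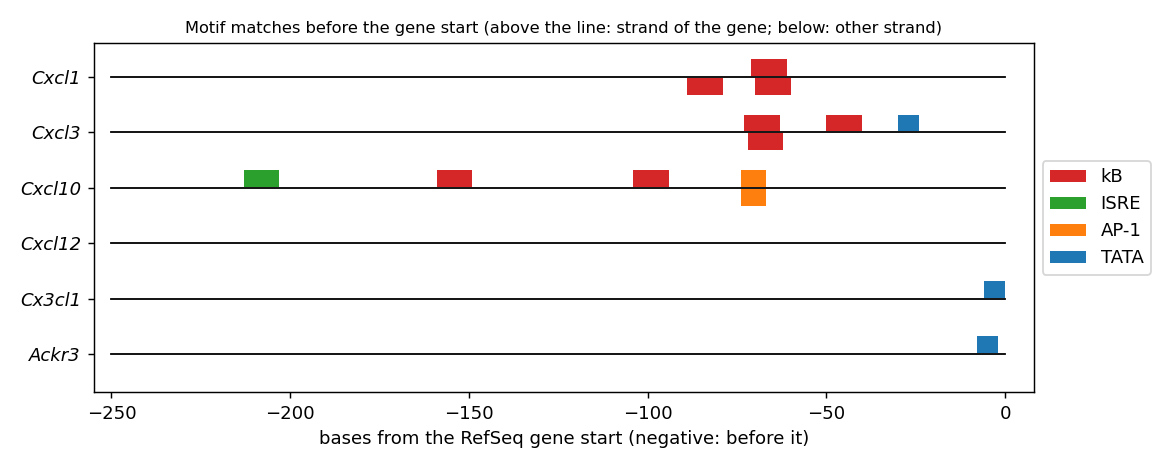
Matches to the 4 motifs in the 250 bases before the RefSeq start of 6 genes; the horizontal axis is the distance from the start in bases, bars above a line lie on the gene's strand and bars below it on the other. The NF-kB form is seen in Cxcl1, Cxcl3 and Cxcl10, and the ISRE form in Cxcl10.

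The levels of the 10 genes spanned from 3.65 FPKM for Ackr3 to 314 FPKM for Ccl2 as means over the 9 libraries. Ccl2 and Ccl7, the monocyte attractants MCP-1 and MCP-3, had means of 314 and 257 FPKM. Cxcl5 (235 FPKM) and Cxcl1 (133 FPKM), ligands of the neutrophil receptor CXCR2, came next. Cxcl10, a ligand of CXCR3 on activated T cells, had 82.8 FPKM and Cxcl12 64.8 FPKM. The membrane-anchored chemokines followed, Cx3cl1 (fractalkine) with 17.7 FPKM and Cxcl16 with 6.63 FPKM, and Cxcl3, also a CXCR2 ligand gene, had 5.91 FPKM. Most neighbours in this order were ordered alike in all 9 libraries, but Ccl7 exceeded Cxcl5 in 6 of 9 and Cxcl16 exceeded Cxcl3 in 6 of 9. In TNBS PF the order of Cxcl16 and Cxcl3 was turned, with all 3 values of Cxcl3 above all 3 of Cxcl16.

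**Figure D2:**
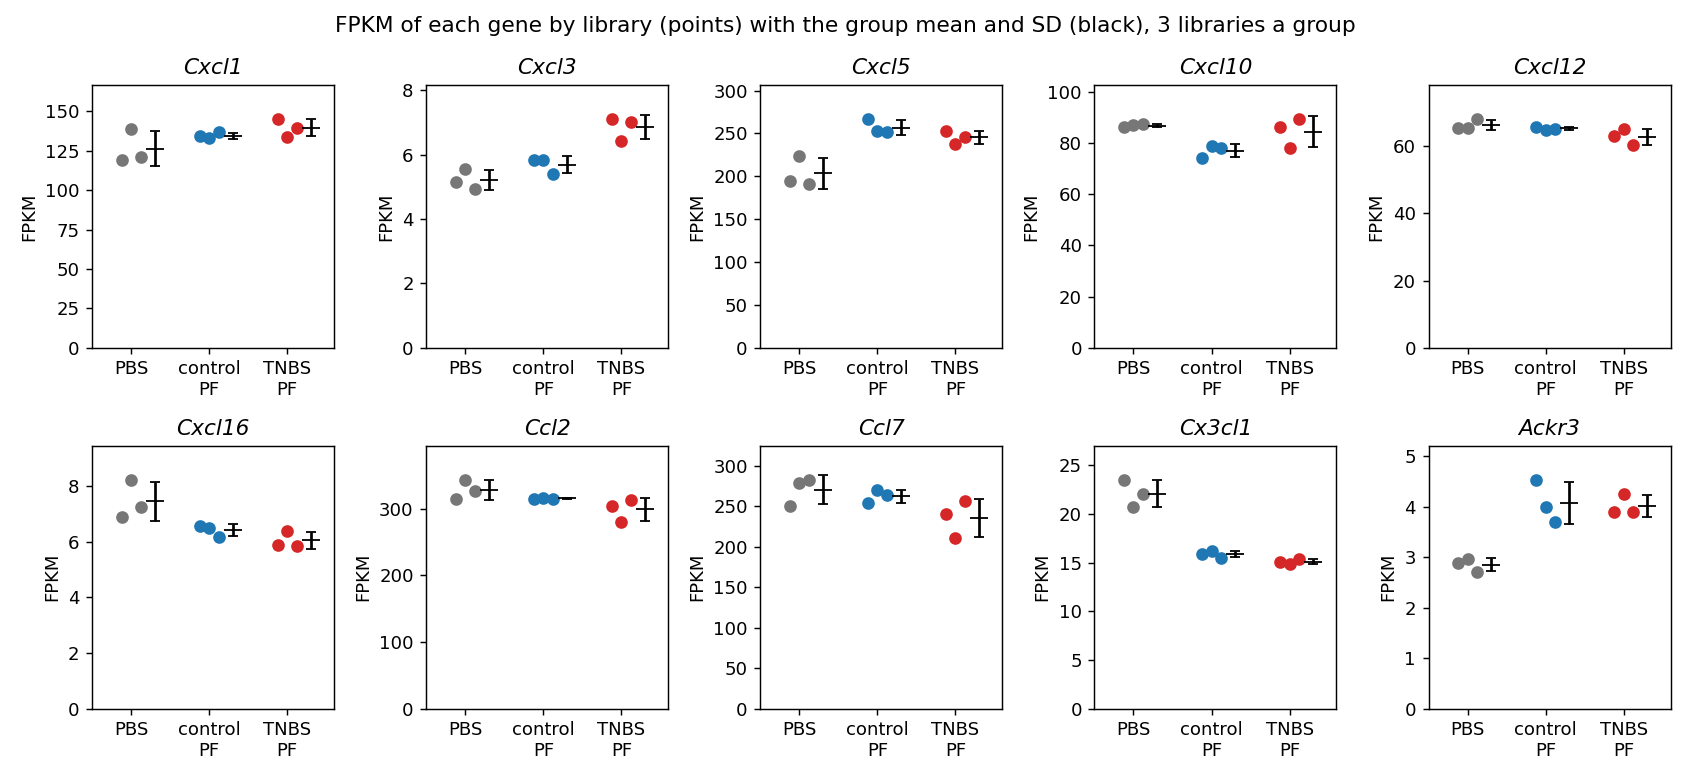
FPKM of the 10 genes (vertical axes from 0) in the 3 libraries of each group, as points, with the group mean and SD in black. Cx3cl1 lies between 20.7 and 23.5 FPKM in PBS and between 14.8 and 16.2 FPKM in the 6 libraries with PF, and Ackr3 and Cxcl5 lie higher with PF than in PBS.

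Control PF was set against PBS to see what fluid of control mice does to the cells, and 3 of the 10 genes were called in it: Cxcl5 and Ackr3 rose and Cx3cl1 fell. Of all 10537 tested genes, 2.15% were called in either direction, 1.02% higher and 1.14% lower. The median log2 fold change of the 10 genes was −0.03, and that of all tested genes was 0.001. The groups did not overlap for 5 of the 10 genes and for 18.6% of all tested genes. In the comparison of TNBS PF with PBS, which shares its PBS libraries with the first, 3 genes rose (Cxcl3, Cxcl5 and Ackr3) and 4 fell (Cxcl16, Ccl2, Ccl7 and Cx3cl1). There 16.7% of all tested genes were called, 7.8% higher and 8.88% lower, with 34.3% of the calls higher under TPM scaling in place of 46.8%. The median of the 10 genes was −0.06 against −0.01 for all tested genes, and 7 of the 10 had groups that did not overlap, against 35.3% of all.

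Cx3cl1 encodes fractalkine, an adhesion molecule and, once shed by the proteases ADAM10 and ADAM17, a soluble attractant for CX3CR1-bearing monocytes and lymphocytes (ENSMUSG00000031778, mm10 chromosome 8, 94772009 to 94782427, plus strand). Its FPKM were 23.5, 20.7 and 22.0 in PBS 1 to 3, 15.9, 16.2 and 15.5 in control PF 1 to 3, and 15.1, 14.8 and 15.4 in TNBS PF 1 to 3. All 6 libraries with PF lay below all 3 of PBS, and the TNBS PF values lay just below those of control PF. The mean fell 1.39-fold in control PF, from 22.1 ± 1.41 to 15.9 ± 0.329 FPKM (SD, n = 3 each), a log2 fold change of −0.45 (SE 0.0444, limma adjusted p = 0.00043). In TNBS PF it was 1.46-fold lower than in PBS (15.1 ± 0.303 FPKM, log2 fold change −0.52, adjusted p = 9.45e-06). Between the PF groups the difference did not pass the test (−0.07, 95% interval −0.16 to 0.03, adjusted p = 0.393). Both calls against PBS held under every alternative run. In RNA of a whole culture, fewer cells that express a gene and less RNA per cell cannot be told apart.

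Ackr3 (ENSMUSG00000044337, chromosome 1, 90203980 to 90216751, plus strand) encodes the atypical receptor that scavenges CXCL12. Its FPKM were 2.89, 2.97 and 2.70 in PBS, 4.53, 3.998 and 3.71 in control PF, and 3.89, 4.26 and 3.90 in TNBS PF. Every PF library exceeded every PBS library, and the PF groups overlapped each other. These values rest on 173 to 365 fragments per library. The mean was 1.43-fold higher in control PF (4.08 ± 0.419 against 2.86 ± 0.138 FPKM, SD, n = 3 each), with a log2 fold change of 0.39 (SE 0.0671, adjusted p = 0.00874), and 1.41-fold higher in TNBS PF (4.02 ± 0.212 FPKM, 0.38, adjusted p = 0.00226). With 0.1 added to FPKM in place of 1 the log2 fold changes were 0.51 and 0.49. Without the filter on low values the call in control PF was lost at adjusted p = 0.0501. Between TNBS PF and control PF the log2 fold change was −0.02 (95% interval −0.16 to 0.13, adjusted p = 0.916).

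Cxcl12 (ENSMUSG00000061353, chromosome 6, 117168535 to 117181367, plus strand), the ligand that ACKR3 removes, was the steadiest of the 10, with the highest of its 9 values 1.13 times the lowest. Its FPKM were 65.3, 65.4 and 68.0 in PBS, 65.9, 64.9 and 65.2 in control PF, and 62.9, 65.1 and 60.3 in TNBS PF. None of the comparisons passed the test, although the TNBS PF values all lay under those of PBS. The log2 fold changes were −0.02 for control PF against PBS (95% interval −0.09 to 0.05, adjusted p = 0.82), −0.08 for TNBS PF against PBS (−0.15 to −0.01, adjusted p = 0.127) and −0.06 between the PF groups (−0.13 to 0.01, adjusted p = 0.314). The ratio of Cxcl12 to Ackr3 in FPKM was 23.3 ± 1.68 in PBS, 16.1 ± 1.53 in control PF and 15.6 ± 0.464 in TNBS PF (SD, n = 3 each). CXCR4, the signalling receptor for CXCL12, was represented by at most 0.0432 FPKM of Cxcr4.

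Cxcl5, Cxcl1 and Cxcl3 encode CXC chemokines that recruit neutrophils through CXCR2, and they lie in 1 cluster on chromosome 5 with Ppbp, Pf4, Cxcl15 and Cxcl2. Cxcl5 (ENSMUSG00000029371, chromosome 5, 90759360 to 90761624, plus strand) had FPKM of 195, 224 and 191 in PBS, 267, 253 and 251 in control PF, and 253, 238 and 246 in TNBS PF. All PF values lay above all PBS values. It rose 1.26-fold in control PF against PBS (257 ± 8.4 against 204 ± 18.0 FPKM, SD, n = 3 each, log2 fold change 0.34, SE 0.0507, adjusted p = 0.00413) and 1.21-fold in TNBS PF against PBS (245.7 ± 7.38 FPKM, 0.27, adjusted p = 0.00292). The PF groups overlapped, with a log2 fold change of −0.06 (95% interval −0.17 to 0.04, adjusted p = 0.474) in TNBS PF. The 2 calls held under every alternative run.

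Cxcl3 (ENSMUSG00000029379, chromosome 5, 90786103 to 90789600, plus strand) was the single gene of the 10 called between the PF groups. Its FPKM were 5.14, 5.55 and 4.94 in PBS, 5.84, 5.83 and 5.38 in control PF, and 7.09, 6.42 and 7.02 in TNBS PF. The TNBS PF values stood above all 6 others, and control PF and PBS overlapped. The TNBS PF mean was 1.21-fold that of control PF (6.85 ± 0.369 against 5.68 ± 0.261 FPKM, SD, n = 3 each, log2 fold change 0.23, SE 0.0568, adjusted p = 0.0206) and 1.31-fold that of PBS (5.21 ± 0.312 FPKM, 0.34, adjusted p = 0.00157). The call against control PF was lost on leaving out control PF 3 (adjusted p = 0.0806), TNBS PF 1 (0.0839) or TNBS PF 3 (0.0802), and without the filter on low values (0.0521), in a range from 0.0154 to 0.0839 over 18 alternatives. That against PBS held in all 18. The values rest on 321 to 623 fragments, and 4.24% of the stretches of 50 bases in Cxcl3 transcripts also occur in transcripts of other genes, among them Cxcl2, so that reads of those stretches could be split between genes. The share was 0.693% for Cxcl5 and 0 for the other 8 genes.

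Cxcl1 (ENSMUSG00000029380, chromosome 5, 90891241 to 90893115, plus strand) encodes KC, a main neutrophil attractant of the mouse. It had 119, 139 and 121 FPKM in PBS, 134, 133 and 137 in control PF, and 145, 134 and 139.6 in TNBS PF. PBS 2 lay among the PF libraries, whereas PBS 1 and PBS 3 lay under all of them. The log2 fold changes were 0.09 for control PF (adjusted p = 0.395) and 0.15 for TNBS PF (adjusted p = 0.063), both against PBS, and neither passed. Without PBS 2 they were 0.16 (adjusted p = 0.0219) and 0.22 (adjusted p = 0.00127). The value for TNBS PF was called in 3 of 18 alternatives, the others being median-ratio scaling and limma voom. That for control PF was called in 1 of 18. Between the PF groups the log2 fold change was 0.05 (95% interval −0.06 to 0.16, adjusted p = 0.57). The FPKM of Cxcl5 relative to Cxcl1 was 1.61 ± 0.0246 in PBS, 1.91 ± 0.0728 in control PF and 1.76 ± 0.017 in TNBS PF, with no overlap between the 3 groups, while that of Cxcl1 relative to Cxcl3 was 24.2 ± 0.937, 23.7 ± 1.43 and 20.4 ± 0.48 (SD, n = 3 each).

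Ccl2 and Ccl7 recruit monocytes through CCR2 and are next to each other on chromosome 11. Ccl2 (ENSMUSG00000035385, 82035571 to 82037453, plus strand) had FPKM of 314, 343 and 326 in PBS, 315, 316 and 315 in control PF, and 304, 279.8 and 313 in TNBS PF. Ccl7 (ENSMUSG00000035373, 82045712 to 82047525, plus strand) had 250.1, 279.6 and 283 in PBS, 254, 269.9 and 264 in control PF, and 240.3, 211 and 257 in TNBS PF. For both genes TNBS PF 2 was the lowest of the 9 libraries. Ccl2 in TNBS PF was 0.912 of its PBS mean (299 ± 17.2 against 328 ± 14.5 FPKM, SD, n = 3 each, log2 fold change −0.13, SE 0.0414, adjusted p = 0.044) without overlap, and Ccl7 was 0.871 of it (236 ± 23.5 against 271 ± 18.0 FPKM, −0.20, SE 0.0627, adjusted p = 0.0448) with overlap. These calls were just inside the threshold and were lost in 12 and 11 of 18 alternatives. Without TNBS PF 2 the adjusted p was 0.175 for Ccl2 and 0.162 for Ccl7, and without PBS 2 it was 0.12 and 0.105. Leaving out control PF 1, control PF 2, control PF 3, TNBS PF 1 or PBS 3 also ended both calls, with adjusted p of 0.0554 to 0.139. Neither gene was called in control PF against PBS (−0.05 and −0.04, adjusted p = 0.577 and 0.813) or between the PF groups (−0.08 and −0.16, adjusted p = 0.267 and 0.129). The FPKM of Ccl7 relative to Ccl2 was 0.826 ± 0.0367 in PBS, 0.834 ± 0.0236 in control PF and 0.788 ± 0.034 in TNBS PF.

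Cxcl10 (ENSMUSG00000034855, chromosome 5, 92346638 to 92348889, minus strand) encodes the interferon-inducible protein IP-10, and it took another order of the groups. It had 86.3, 87.0 and 87.3 FPKM in PBS, 74.1, 78.7 and 78.2 in control PF, and 86.3, 77.9 and 89.3 in TNBS PF. Control PF lay below PBS without overlap, while TNBS PF 2 lay with control PF and the other 2 TNBS PF libraries lay with PBS. The log2 fold change of control PF against PBS was −0.17 (95% interval −0.27 to −0.08) and did not pass at adjusted p = 0.0601, with a range of 0.0147 to 0.193 over 18 alternatives, of which 5 called it. That of TNBS PF against control PF was 0.13 (95% interval 0.04 to 0.22, adjusted p = 0.0756), and without TNBS PF 2 it was 0.19 (adjusted p = 0.00868). Without TNBS PF 2 or TNBS PF 3 the control PF against PBS value was called (adjusted p = 0.0178 and 0.0454). TNBS PF against PBS gave −0.04 (adjusted p = 0.559).

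Cxcl16 (ENSMUSG00000018920, chromosome 11, 70453983 to 70459984, minus strand) encodes a membrane-bound ligand of CXCR6 that is shed by ADAM10. Its FPKM were 6.87, 8.21 and 7.23 in PBS, 6.58, 6.48 and 6.17 in control PF, and 5.88, 6.39 and 5.85 in TNBS PF, on 364 to 494 fragments per library. PBS lay above both PF groups, which overlapped. It was 1.23-fold lower in TNBS PF than in PBS (6.04 ± 0.303 against 7.44 ± 0.691 FPKM, SD, n = 3 each, log2 fold change −0.26, SE 0.061, adjusted p = 0.0114), a call that held in all 18 alternatives. The value for control PF against PBS was −0.19 (95% interval −0.32 to −0.05) and did not pass at adjusted p = 0.151. The PF groups differed by −0.07 (95% interval −0.21 to 0.06, adjusted p = 0.498).

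**Figure D3:**
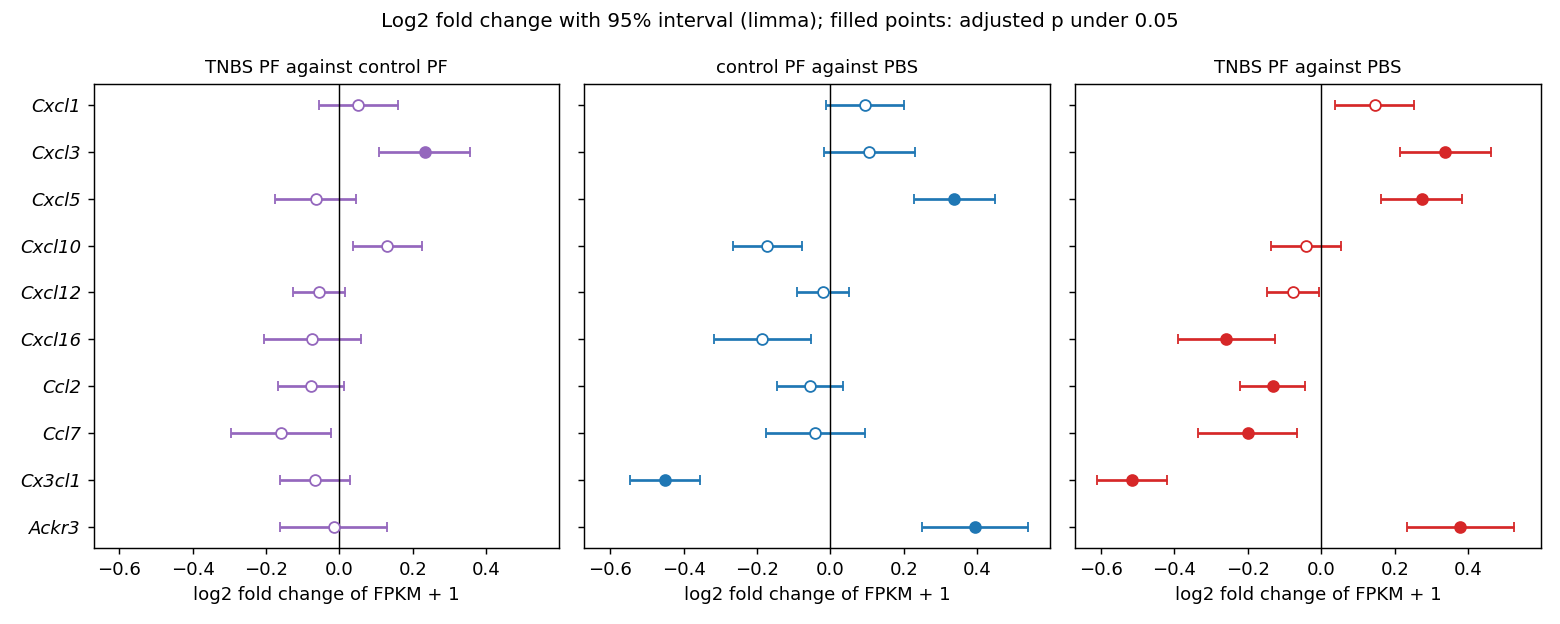
Log2 fold change (horizontal axis, on the scale of FPKM + 1) with its 95% interval for the 10 genes in the 3 comparisons, from limma; filled points have an adjusted p under 0.05. The filled points number 1 for TNBS PF against control PF, 3 for control PF against PBS and 7 for TNBS PF against PBS, and the last 2 comparisons share the PBS libraries.

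TNBS PF was set against control PF to see whether treating the fluid donors changed the cells' response. By limma 1 of the 10 genes was called higher (Cxcl3) and 0 lower, where 10.6% of all tested genes were called, 5.15% higher and 5.45% lower. At an unadjusted p under 0.05 there were 2 higher and 1 lower, and the share of all genes at that threshold was not computed. Limma voom on recovered fragments called 2 higher (Cxcl3 and Cxcl10) and 1 lower (Ccl7, −0.16, adjusted p = 0.0276), where it called 14.7% of all genes. The median log2 fold change was −0.06 against −0.01 for all tested genes. Groups did not overlap for 3 of the 10, against 31.8% of all tested genes. In the authors' deposited table none of the 10 genes was called in any of the 3 comparisons, where every call had a log2 fold change of 1 or more in size and the largest among the 10 was 0.527 in size. The p-values in the authors' deposited table were under 0.05 for 2 genes between the PF groups, 5 for control PF and PBS, and 6 for TNBS PF and PBS. The share of all genes with such a p-value was not computed, so these counts are a description only.

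Within the groups the 10 genes did not move alike. TNBS PF 2 held the lowest value of its group for 7 of the 10 genes, among them all of Cxcl1, Cxcl3, Cxcl5, Cxcl10, Ccl2, Ccl7 and Cx3cl1, and the highest for Cxcl12, Cxcl16 and Ackr3. PBS 2 held the highest value of its group for 6 of the 10 and the lowest for Cx3cl1. The coefficient of variation within a group ran from 0.267% for Ccl2 in control PF to 10.3% for Ackr3 in control PF. The summed FPKM of the 9 ligand genes was 1116 ± 53.8 in PBS, 1139.8 ± 3.44 in control PF and 1095 ± 54.2 in TNBS PF (SD, n = 3 each), so the groups differed by less than the spread of PBS.

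These 9 genes made up 90.5 to 92.2% of the summed FPKM of the 38 chemokine ligand genes in the table. Of the other 29 ligand genes, 23 stayed under 1 FPKM in every library, 10 of them listed at 0 throughout, and 6 were tested. Ccl5 (RANTES), an attractant of T cells and monocytes, was the most abundant of them, and it was the single one that limma called: 98.3 ± 5.76 FPKM in TNBS PF against 87.0 ± 1.39 in control PF (log2 fold change 0.17, adjusted p = 0.0354) and 88.4 ± 5.86 in PBS (0.15, adjusted p = 0.0434). These calls were lost in 8 and 11 of 18 alternatives, with adjusted p of 0.14 and 0.175 without TNBS PF 1. Leaving out control PF 1, control PF 2, control PF 3 or TNBS PF 3 ended both as well, and leaving out PBS 2 or PBS 3 ended that against PBS (adjusted p of 0.0554 to 0.151 over these). In control PF against PBS limma called 0 of the 6, with 1 lower at an unadjusted p under 0.05 and 0 by voom. Of all genes there, limma called 2.15% and voom 3.55%. In TNBS PF against PBS 2 of the 6 were higher and 3 lower at an unadjusted p under 0.05. There voom called 1 higher, Ccl5, where it called 20.6% of all genes. It called 2 lower, Ccl9 (log2 fold change −0.37, limma adjusted p = 0.0688) and Cxcl9 (−0.34, limma adjusted p = 0.0668). In the chromosome 5 cluster Cxcl2, beside Cxcl1, and Ppbp, between Cxcl5 and Cxcl3, were named after their values were seen. In TNBS PF against control PF their log2 fold changes were 0.17 (adjusted p = 0.163) and −0.27 (adjusted p = 0.0936), and neither passed. The nearest tested protein-coding genes on either side of the 10 were 15 in number without the 10 themselves, and lay up to 1214 kb away. Limma called 0 of them in each comparison. For TNBS PF against control PF, control PF against PBS and TNBS PF against PBS, it called 10.6%, 2.15% and 16.7% of all genes. In the same order, 6, 4 and 5 of the 15 had an unadjusted p under 0.05. Voom called 1, 0 and 3, where it called 14.7%, 3.55% and 20.6% of all genes. The share of all genes at the unadjusted threshold was not computed.

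**Figure D4:**
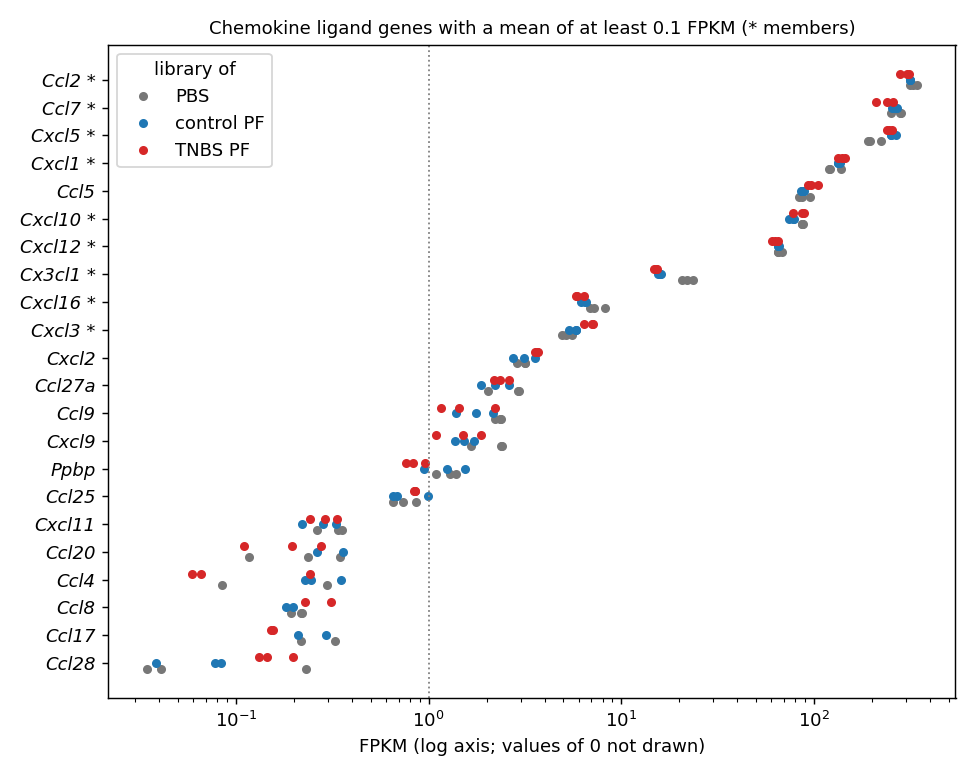
FPKM (log axis) of the chemokine ligand genes with a mean of at least 0.1 FPKM, 1 point per library, coloured by group; asterisks mark the 9 genes described and the dotted line is 1 FPKM. Ccl5 is the single other gene among the abundant ligands, and the PBS points of Cx3cl1 stand to the right of its PF points.

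None of the 22 other chemokine receptor genes reached 1 FPKM in any library, and 9 were listed at 0 in all 9. Ccrl2, a non-signalling receptor, was the most abundant, with at most 0.833 FPKM. Among the receptors for the ligands above, Cxcr6 was at up to 0.113 FPKM and Cx3cr1 at up to 0.00867 FPKM, and Cxcr3 was listed at 0, genes chosen after their values were seen. Ackr3 was thus the single chemokine receptor gene tested.

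Of 15 genes that process or bind chemokines, 14 were tested and Mif, the gene of a chemokine-like cytokine, was the most abundant with a mean of 380.4 FPKM. Against PBS limma called 2 lower in control PF and 4 in TNBS PF, and none higher. Of all tested genes, it called 1.02% higher and 1.14% lower in control PF, and 7.8% and 8.88% in TNBS PF. Voom called 0 higher and 2 lower in control PF, where it called 3.55% of all genes. In TNBS PF it called 1 higher and 5 lower, where it called 20.6%. Those that limma had not called were Sdc4, higher (log2 fold change 0.09, limma adjusted p = 0.0635), and Adam17, lower (−0.13, limma adjusted p = 0.0617). Mmp9, a secreted gelatinase that trims chemokines, fell from 4.06 ± 0.194 FPKM in PBS to 2.68 ± 0.208 in control PF (log2 fold change −0.46, adjusted p = 0.0178) and 2.49 ± 0.511 in TNBS PF (−0.55, adjusted p = 0.0013). Sdc2, a heparan sulfate proteoglycan of the cell surface, fell by 0.13 and 0.14 (adjusted p = 0.0381 and 0.00813). In TNBS PF against PBS Adam10, the sheddase of Cx3cl1 and Cxcl16 products, fell by 0.13 (adjusted p = 0.00929) and the membrane protease gene Mmp14 by 0.18 (adjusted p = 0.00339). In control PF against PBS the call of Sdc2 was lost in 12 of 18 alternatives, at adjusted p of up to 0.131. These included leaving out any library except PBS 2 (adjusted p of 0.0564 to 0.116). That of Mmp9 was lost in 4 of 17 alternatives. These were leaving out control PF 1 (0.0571), control PF 2 (0.0702) or PBS 3 (0.0694), and using no filter on low values (0.0946). Between the PF groups limma called 0 of the 14, with 1 higher and 4 lower at an unadjusted p under 0.05, and 1 and 2 by voom. Of all genes there, limma called 10.6% and voom 14.7%, and the share at the unadjusted threshold was not computed. The list medians were −0.02, −0.06 and −0.05 for control PF against PBS, TNBS PF against PBS and between the PF groups. Those of all tested genes were 0.001, −0.01 and −0.01.

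Of 20 genes that regulate chemokine transcripts, all were tested. In TNBS PF against control PF 1 rose and 4 fell: Tnfaip3, the A20 feedback inhibitor of NF-kB, rose by 0.26 (adjusted p = 0.00618), while the cytokine and pattern receptor genes Il1r1 (−0.21, adjusted p = 0.00655), Tlr4 (−0.20, adjusted p = 0.0177) and Ifnar1 (−0.18, adjusted p = 0.00685) and the hypoxia factor gene Hif1a (−0.14, adjusted p = 0.0151) fell. The list median was −0.07 against −0.01 for all tested genes, of which 5.15% were called higher and 5.45% lower. The calls of Tlr4 were lost without control PF 1, TNBS PF 2 or TNBS PF 3 (adjusted p of 0.0607 to 0.0684). Those of Hif1a were lost without control PF 3, TNBS PF 2 or TNBS PF 3 (0.0564 to 0.0735), and without the mean-variance trend (0.0591). In control PF against PBS 2 rose and 0 fell by limma, with a median of 0.04. Of all tested genes, limma called 1.02% higher and 1.14% lower, with a median of 0.001. At an unadjusted p under 0.05 there were 6 higher and 2 lower, and the share of all genes at that threshold was not computed. Voom called 2 higher and 1 lower, where it called 3.55% of all genes. Hif1a, the most abundant of the list, rose from 96.8 ± 2.3 to 119.8 ± 1.03 FPKM (0.30, adjusted p = 0.00043). Nfkbiz, a co-regulator of NF-kB targets, rose by 0.15 (adjusted p = 0.031). The call of Nfkbiz was lost in 9 of 18 alternatives, among them without control PF 1, control PF 2, PBS 1 or PBS 3 (0.062 to 0.116).

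In TNBS PF against PBS 3 of the 20 regulators rose and 2 fell, with a median of −0.04. Of all tested genes, 7.8% were called higher and 8.88% lower, with a median of −0.01. Hif1a rose by 0.17 (adjusted p = 0.00322), Tnfaip3 by 0.20 (adjusted p = 0.0167) and the mRNA-stabilizing gene Elavl1 by 0.13 (adjusted p = 0.0381). Irf1, the gene of an interferon regulatory factor, fell by 0.14 (adjusted p = 0.031). The call of Hif1a held in all 18 alternatives. That of Tnfaip3 was lost without TNBS PF 2 (adjusted p = 0.0796). Those of Elavl1 and Irf1 were lost in 8 and 7 of 18 alternatives. Both were lost without TNBS PF 1, TNBS PF 2, PBS 2 or PBS 3, that of Elavl1 also without control PF 2 and that of Irf1 also without TNBS PF 3 (adjusted p of 0.0511 to 0.141).

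For the 7 genes called in a comparison, the likest profiles were sought among 10320 other tested genes as the smallest root mean square difference of centred log2(FPKM + 1) over the 9 libraries. Cx3cl1 was nearest to Uba7 (0.0708) and Ifi207 (0.0709), where its own root mean square deviation was 0.234. Ackr3 (own deviation 0.194) was nearest to Pgpep1 (0.0733) and Spire2 (0.0791), and Cxcl5 (0.16) to Cpne8 (0.0497) and Atp5md (0.0662). Cxcl3 (0.151) was nearest to Cpox (0.0396) and Klra4 (0.0474). Cxcl16 (0.127) was nearest to Tapbpl and Foxred2, Ccl7 (0.121) to Atg14 and Gon4l, and Ccl2 (0.0737) to Vps45 and Tmem198b. As an example, Ifi207 had 7.63 ± 0.251 FPKM in PBS, 5.15 ± 0.156 in control PF and 4.63 ± 0.239 in TNBS PF (SD, n = 3 each), the same order of groups as Cx3cl1. These genes were picked for their profile, so their values are a description.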

How the data were processed

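RNA of the cells was sequenced in 9 libraries, 3 a group, and the authors deposited 1 table of FPKM (fragments scaled to gene length and to each library's total of assigned fragments) per library, per the file headers. Cutadapt 1.15 and mm10 are named in the submitters' processing notes. For the aligner, the counting program, the strand and the authors' test, the sources used here give nothing. The authors' deposited log2 fold changes and p-values were only described.

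FPKM multiplied by exon lengths of GENCODE M21 (21902 of 21959 genes had one) fell on whole fragments, within 0.01, for 97.2 to 97.3% of values under 1000 fragments. That gave depths of 17.9 to 25.6 M assigned fragments. Log2(FPKM + 1) of the 10537 genes that reached 1 FPKM in 3 or more libraries entered 1 limma 3.58.1 fit (R 4.3.3) with a mean per group and a mean-variance trend. P-values were adjusted by Benjamini-Hochberg over all 10537 genes, with a threshold of 0.05. Fold changes on this scale understate those of low genes. The deviations of same-numbered libraries had correlations of −0.0978 to 0.0746 across genes. The labels do not say what a replicate number shares, and with 3 libraries a group these correlations cannot decide it.

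The 10 genes and the gene lists were chosen with earlier results of these data known. Named are the 10 genes, the called and the most abundant genes of each list, and the 2 genes nearest in profile to each called gene. Other genes named were chosen after their values were seen. The values of 1 called list gene are not reported here. Alternatives were another pseudocount, filter, scaling, variance model, sample set and replicate block, limma voom on recovered fragments, and each library left out. Motifs were searched in 250 bases before gene starts of RefSeq, build GRCm38.p6.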

Additional observations from a re-analysis of the deposited data

How the results depend on the processing

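Of the 30 log2 fold changes of the 10 genes, 11 were called. Over 18 alternatives each (17 for Ackr3, which the stricter filter of 5 FPKM removes), 168 of their 196 values stayed called in the same direction, 28 lost the call, and none changed sign. Of 341 values of the 19 uncalled fold changes, 14 became called and 4 changed sign: Ackr3 in TNBS PF against control PF without control PF 1 (0.048), TNBS PF 1 (0.0021) and TNBS PF 3 (0.0013), with a range of −0.069 to 0.048 on leaving out each library, and Cxcl10 in TNBS PF against PBS without TNBS PF 2 (0.015, range −0.082 to 0.015). Called genes between the PF groups numbered 1, and 0 without the filter, 2 with median-ratio scaling and 3 with voom. The shares of all genes called were 10.6%, 4.84%, 10.6% and 14.7%, in the same order. Leaving out each library gave 0 to 2 there, 3 to 4 in control PF against PBS (3 with all) and 5 to 7 in TNBS PF against PBS (7 with all). With the replicate number as a block the counts were 1, 3 and 6, since Ccl2 was lost (adjusted p = 0.073), but the labels do not say what a number shares. Over all genes, control PF against PBS had 227 calls, but 103 without the filter, 117 without the trend, 374 with voom, and 115, 130, 124 and 142 without control PF 1, 2, 3 and PBS 3. TNBS PF against control PF had 1117, but 733, 708, 691, 661 and 676 without control PF 2, control PF 3 and TNBS PF 1, 2 and 3. TNBS PF against PBS had 1758, and 1148 without TNBS PF 3. Of the 10 genes, Ackr3, Cxcl3 and Cxcl16 rest on the fewest fragments (173 to 365, 321 to 623 and 364 to 494 per library). The part of depth in their results was not tested.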
